A study of Mus musculus with 2 samples.

Results

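The replication-dependent histone genes encode the linker histone H1 and the core histones H2A, H2B, H3 and H4 that package newly replicated DNA. They were chosen by symbol alone, as every gene whose name begins with Hist1h, Hist2h, Hist3h or Hist4h, and amounted to 70 of the 29311 genes listed in both samples. By type there were 6 H1, 20 H2a, 19 H2b, 12 H3 and 13 H4 genes. The annotation counts 67 of the 70 as protein-coding and 3 as pseudogenes (Hist1h2aj, Hist2h3c2 and Hist3h2bb-ps). The first of 2 samples was of wild-type E14 ES cells, a mouse embryonic stem cell line grown in culture. The second was of wild-type forebrain cells from B6CBAF1/J embryos at E10.5, a mid-gestation stage when the neuroepithelium is dividing. Both were sequenced as strand-specific libraries of total RNA depleted of ribosomal RNA. With 1 library per sample no difference has a replicate check, so no p-value is given, and strain and cell type cannot be told apart.

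Cells make most of their histone protein during S phase, when the amount of DNA doubles and every new stretch needs nucleosomes. The genes that meet this demand are short, lack introns in most cases, lie in clusters of many near-identical copies, and give the only known animal mRNAs without a poly(A) tail. Their transcripts end instead just after a conserved stem-loop, which is bound by the protein SLBP and governs their processing, translation and decay. Protocols that select poly(A) RNA therefore miss much of this class, whereas total RNA retains it. Variant histones such as H3.3 or H1.0 come from separate genes that are transcribed outside S phase as well, usually with introns and a poly(A) tail.

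The stem-loop is the sequence that sets these transcripts apart, and it is shown here for the genes that carry the results. A motif of 16 bases, with a stem of 6 base pairs and a loop of 4 bases, was searched on the sense strand. The window was the 200 bases after the stop codon of the longest annotated coding sequence of each gene in the NCBIM37 (mm9) genome. The motif was found in 60 of the 67 coding members (89.6%), against 83 of 22380 protein-coding genes in the annotation (0.371%), a set that includes those 60. It began between 22 and 59 bases after the stop codon, with a median of 32. In the lines that follow capitals mark the stem and loop, and 5 bases are shown on each side.
Hist1h1a, chr13:23856256-23856281, plus strand: ccaacGGCTCTTTTCAGAGCCaccaa
Hist1h1t, chr13:23788389-23788414, plus strand: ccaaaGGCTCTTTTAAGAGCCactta
Hist1h2aa, chr13:24026755-24026780, plus strand: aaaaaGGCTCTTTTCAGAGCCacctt
Hist1h2ba, chr13:24025594-24025619, minus strand: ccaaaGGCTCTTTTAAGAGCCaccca
Hist3h2ba, chr11:58762846-58762871, plus strand: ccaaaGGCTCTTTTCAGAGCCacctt
Hist1h3b, chr13:23844684-23844709, plus strand: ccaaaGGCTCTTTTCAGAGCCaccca
Hist1h4d, chr13:23673814-23673839, plus strand: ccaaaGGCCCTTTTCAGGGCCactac
Hist4h4, chr6:136752514-136752539, minus strand: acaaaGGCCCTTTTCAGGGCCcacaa
Only 8 different stem-loops occurred among the 60 genes, and 36 genes shared the form printed for Hist1h1a. In all 60 the stem paired over its 6 positions. In 15 of them the annotated exons end at or before the end of the motif, so that reads over it were outside the counted exons in whole or in part. All 6 H1, 11 H3 and 13 H4 coding genes held the motif, as did 17 of 19 H2a and 13 of 18 H2b genes. The 7 coding members without it in this window were Hist1h2al, Hist1h2an, Hist1h2bp, Hist1h2bq, Hist1h2br, Hist2h2bb and Hist2h2be. In Hist1h2bp, Hist1h2bq, Hist1h2br and Hist2h2bb the longest coding sequence gives 138, 135, 135 and 120 residues, where that of Hist2h2be gives 126. Any other annotated stop codon was not searched, so these genes may hold the motif elsewhere. H2afx, a variant that is known to make both tailed and untailed mRNA, held the motif as well.

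The ES cell library held 42778698 reads on annotated genes and the forebrain library 59787940, inferred from the steps between the deposited values. Histone genes took 0.91% of them in ES cells and 0.97% in forebrain. The labels were checked against defining markers. All 6 ES cell markers, among them the pluripotency factors Pou5f1 and Nanog, lay at 2140.4 to 11505.32 RPKM in ES cells and at 1.59 to 58.93 in forebrain. The forebrain regulators Emx2 and Lhx2 stood at 268.86 and 876.64 RPKM in forebrain, each higher than in ES cells, and Sox1 was not listed. Of 3 neuron markers Tubb3 and Dcx were higher in forebrain, while Stmn2 went the other way, with 6910 RPKM in ES cells and 1056 RPKM in forebrain. The forebrain library also held RNA of other cells. The 5 erythroid markers summed to 319.3 RPKM in ES cells and 797061.6 in forebrain, led by the embryonic globin Hbb-y. The 4 mesenchyme markers summed to 37.1 and 4265.5 RPKM, and 3 of 4 endothelial markers were at least 2-fold higher in forebrain. Their part in the histone values was not tested, and in bulk RNA fewer cells of a type and less RNA per cell cannot be told apart.

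All 70 histone genes were read in both samples, with 25 to 67311 inferred reads each. They ranked among the most abundant genes of both libraries. In ES cells 57 of the 70 lay within the top 10% of listed genes and 17 within the top 1%. In forebrain these numbers were 63 and 22. The median histone gene stood at 5342 RPKM in ES cells and at 4996 RPKM in forebrain, where the median of all listed genes was 48.94 and 62.37 RPKM. RPKM divides reads by the length of the annotated exons, and for this family that length often departs from that of the mRNA. In 11 members the exons run at least 200 bases past the stem-loop, whereas in 8 they are the coding sequence alone. Hist1h1d had 28799 reads in ES cells over 3821 bp of exon, 3050 of them beyond the stem-loop, and Hist1h1b had 27333 reads over 743 bp, yet their levels were 9202 and 44916 RPKM. Spearman's rho of the level in ES cells with exonic length was -0.24 over the 70 genes, -0.77 over the 6 H1 and -0.74 over the 13 H4 genes, given as a description. Orders of levels between members, and shares of types, therefore hold for RPKM as annotated, while the ratio of the samples for a gene does not depend on its length. Ratios of summed levels weigh each gene's reads by the inverse of its annotated length, so they too hold for RPKM as annotated.

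**Figure D1:**
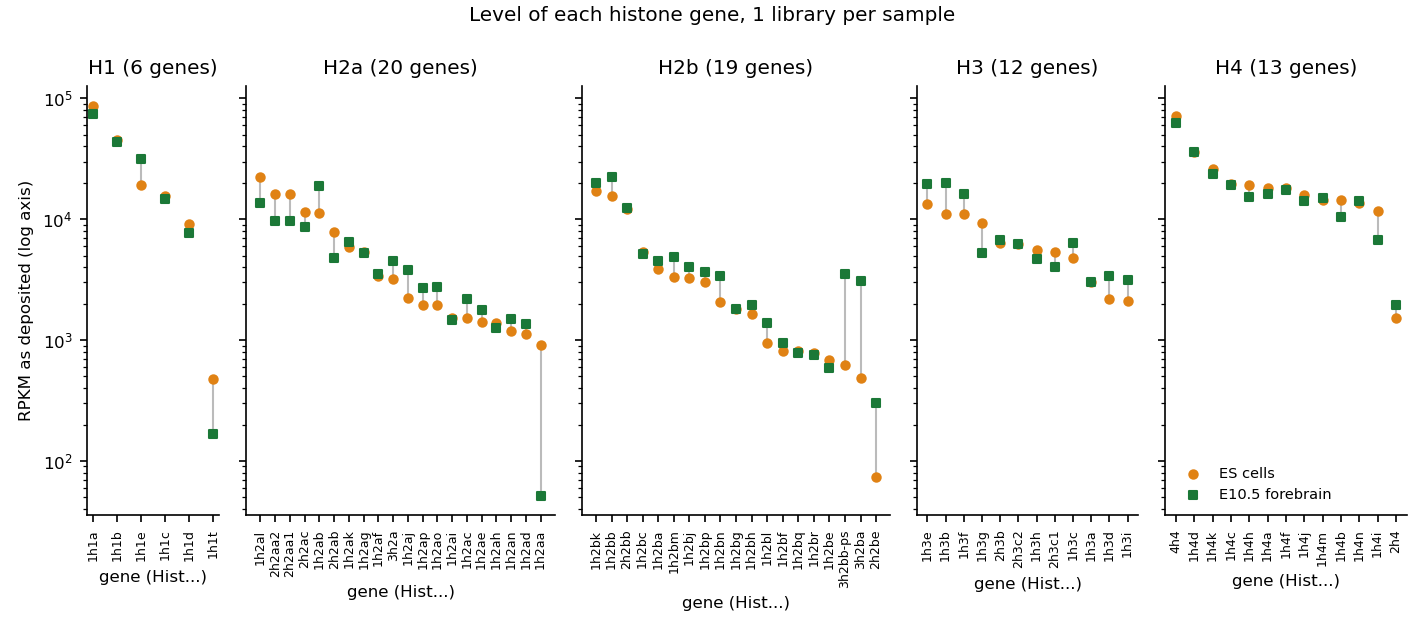
Level of each histone gene as deposited (RPKM, log axis), with circles for ES cells, squares for E10.5 forebrain and a line joining the pair, ordered within each type by the level in ES cells. Most pairs of symbols lie close together, with levels from 51.74 to 87191 RPKM, and the widest gaps are those of Hist1h2aa, Hist3h2ba, Hist3h2bb-ps, Hist2h2be and Hist1h1t.

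Summed over the 70 genes the level was nearly equal, 728484 RPKM in ES cells and 721402 RPKM in forebrain, a ratio of 1.01 with a 95% interval of 1.005 to 1.014. This interval and those below cover counting error of the inferred reads and leave out variation between samples. The median log2 ratio of ES cells over forebrain, taken on log2(RPKM + 1), was -0.03 over the members and -0.01 over all listed genes. There were 32 members higher in ES cells and 38 higher in forebrain, and 53 of the 70 lay within 1.5-fold. At least 2-fold higher in ES cells were 2 members, where 23.3% of all listed genes and 23.7% of the 4676 genes with at least 1000 RPKM in either sample passed the same limit. At least 2-fold higher in forebrain were 3 members, against 25.8% of all genes and 11.4% of the abundant ones. The remaining 65 stayed within 2-fold, whereas 49.1% of all listed genes and 35.1% of the abundant ones lay beyond it in either direction. Of these 65, 32 share more than 50% of their 50-base exonic windows with other annotated genes, so they are not all separate measurements. The scale on which the samples are compared moves the small differences given above. Dividing each sample by the sum of its RPKM shifts the log2 ratios by -0.27, taking the median of all genes to -0.26 and that of the members to -0.30, and then 12 members were higher in ES cells and 58 in forebrain. Dividing by the upper quartile shifts them by 0.09, and then 39 were higher in ES cells and 31 in forebrain.

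The order of the genes within the family was shared as well. Spearman's rho between the samples was 0.95 over the 70 genes, given as a description since both samples share gene lengths and copies with common sequence. Hist1h1a, Hist4h4, Hist1h1b and Hist1h4d held ranks 1 to 4 in both samples.

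**Figure D2:**
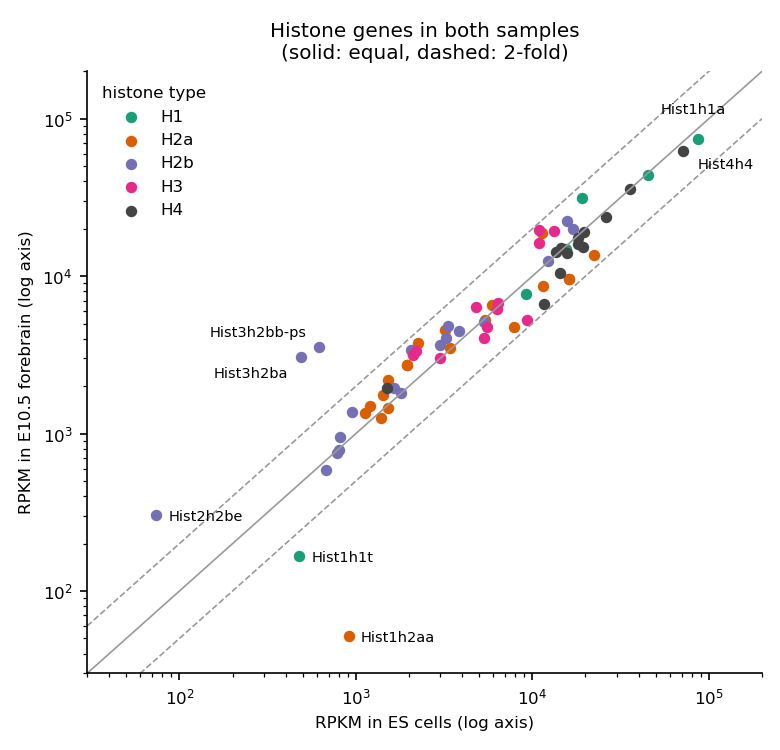
RPKM of each histone gene in E10.5 forebrain against that in ES cells, both on log axes, with colours for the histone type, a solid line for equal values and dashed lines for 2-fold. Of 70 points, 65 lie between the dashed lines, 2 lie beyond them towards ES cells and 3 towards forebrain.

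The linker histones bind DNA where it enters and leaves the nucleosome. Hist1h1a had the highest RPKM of the family, with 87191 RPKM in ES cells and 73804 RPKM in forebrain, 1.18-fold higher in ES cells (1.17 to 1.20). Hist1h1b differed little, with 44916 RPKM in ES cells and 43885 RPKM in forebrain. Hist1h1c (15467 and 14768 RPKM) and Hist1h1d (9202 and 7656 RPKM) were also slightly higher in ES cells. Hist1h1e was higher in forebrain, where it reached 31483 RPKM against 19102 RPKM in ES cells, 1.65-fold (1.61 to 1.68). It was the only one of the 5 somatic subtypes to lie on that side as deposited, whereas all 5 did when scaled by the sum of RPKM. The H1 genes summed to 176355 RPKM in ES cells and 171764 RPKM in forebrain, a ratio of 1.03 that fell below 1 when scaled by the sum of RPKM (0.850) or by reads on genes (0.963).

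The sixth linker histone, Hist1h1t, is known as the testis subtype, made in meiotic male germ cells. It was read at 476.8 RPKM in ES cells (428.5 to 529.1, from 355 reads) and at 167.6 RPKM in forebrain (144.4 to 193.5, from 186 reads). It was thus 2.85-fold higher in ES cells (2.38 to 3.42), while standing far below every somatic H1 gene in both samples.

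H4 took the largest share of the summed RPKM of the family, 38.3% in ES cells and 35.0% in forebrain. All 13 H4 genes encode the same protein of 103 residues by translation of the annotated coding sequences. Together they gave 279291 RPKM in ES cells and 252604 RPKM in forebrain, a ratio of 1.11 (1.096 to 1.115) that turned to 0.915 when scaled by the sum of RPKM. Hist4h4, a lone gene on chromosome 6, led the type with 71105 RPKM in ES cells and 62693 RPKM in forebrain. Next came Hist1h4d with 35833 and 35783 RPKM and Hist1h4k with 26062 and 23805 RPKM. Hist2h4 stood lowest at 1509 and 1954 RPKM, over 1608 bp of exon of which 1235 lie beyond the stem-loop, while Hist4h4 is counted over 312 bp. Their inferred reads in ES cells, 1987 and 18170, lay less far apart than their levels. Of the 13 genes, 10 were higher in ES cells as deposited and 3 when scaled by the sum of RPKM. The widest apart was Hist1h4i (11696 and 6671 RPKM, a log2 ratio of 0.81).

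The H3 genes gave less RNA in ES cells than in forebrain, 80108 and 98125 RPKM, a ratio of 0.816 (0.807 to 0.826). The coding members fall into classes by the protein they encode. The 6 genes Hist1h3b, Hist1h3c, Hist1h3d, Hist1h3e, Hist1h3f and Hist2h3b encode the protein known as H3.2, and each was higher in forebrain, apart from Hist2h3b (6398 and 6727 RPKM) when scaled by the upper quartile. They summed to 48591 RPKM in ES cells and 71734 RPKM in forebrain, a ratio of 0.677 (0.668 to 0.687). Hist1h3b, the widest apart, was read at 10960 RPKM in ES cells and 19747 RPKM in forebrain, and Hist1h3e at 13286 and 19397 RPKM. Hist1h3b has 39.58% of its 50-base windows to itself and shares 46.76% with Hist1h3h, a gene of the next class. The 4 H3.2 genes with at least 50% of their windows unique had a summed ratio of 0.690. The 4 genes Hist1h3a, Hist1h3g, Hist1h3h and Hist1h3i encode H3.1 and summed to 19923 and 16144 RPKM, a ratio of 1.23 (1.20 to 1.27). Here 2 genes were higher in each sample as deposited, 1 in ES cells when scaled by the sum of RPKM and 3 when scaled by the upper quartile, and the excess in ES cells came from Hist1h3g (9293 and 5267 RPKM) and Hist1h3h (5518 and 4720 RPKM). Only Hist1h3a of these 4 has at least 50% of its sequence to itself, and it was even within counting error, with 3009 and 3021 RPKM. The remaining H3 members were Hist2h3c1 (5310 and 4023 RPKM), whose annotated protein is longer, and the pseudogene Hist2h3c2 (6284 and 6224 RPKM), both higher in ES cells as deposited. The exons of Hist2h3c1 overlap those of the H2A gene Hist2h2aa1 (16076 and 9640 RPKM) on the same strand. Reads of both cannot be separated there, and the H3 sum includes them. Hist2h3b shares 79.7% of its 50-base windows with Hist2h3c1, so reads of these cannot be assigned with certainty. The class division was chosen for description and carries no test.

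H2A and H2B form dimers and are needed in equal amount as proteins. The H2a genes summed to 118344 RPKM in ES cells and 103593 RPKM in forebrain, a ratio of 1.14 (1.13 to 1.16). The H2b genes summed to 74386 and 95317 RPKM, a ratio of 0.780 (0.770 to 0.791). By gene, 9 of 20 H2a and 4 of 19 H2b members were higher in ES cells, so that most members of both types were higher in forebrain (median log2 ratios of -0.09 and -0.25). Scaled by the sum of RPKM, these numbers were 6 and 0, the H2a ratio turned to 0.946 and the H2b ratio was 0.646. Within H2a, the 9 genes with a common protein, which include Hist1h2ab (11347 and 18726 RPKM), had a summed ratio of 0.726. The abundant genes higher in ES cells included Hist1h2al with 22292 and 13538 RPKM, Hist2h2aa1 with 16076 and 9640 RPKM, and its twin Hist2h2aa2 with 16079 and 9640 RPKM. The twins have no 50-base window to themselves and Hist1h2al shares 69.6% of its windows with Hist2h2aa1, so these are not separate measurements. Hist2h2ab (7879 and 4785 RPKM) and Hist2h2ac (11561 and 8664 RPKM), with 61.4% of its windows unique, were higher in ES cells too. Hist2h2ab has no window to itself because Gm15444 is annotated over it on the opposite strand. Among H2a members with at least 50% of their windows unique, a set without Hist2h2ab, the summed ratio was 1.035. The leading H2b genes were Hist1h2bb (15673 and 22356 RPKM), Hist1h2bk (17033 and 19856 RPKM) and Hist2h2bb (12222 and 12436 RPKM).

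Hist1h2aa and Hist1h2ba are the germ line pair of this family, known from testis, where their proteins TH2A and TH2B replace the somatic forms. Hist1h2aa was read at 909.4 RPKM in ES cells (806.4 to 1019, from 290 reads) and at 51.74 RPKM in forebrain (33.98 to 77.51, from 25 reads). It was 17.6-fold higher in ES cells (11.5 to 27.2), a log2 ratio of 4.11 and the largest difference of any member. Its neighbour Hist1h2ba did not share it, with 3855 RPKM in ES cells and 4470 RPKM in forebrain, 1.16-fold higher in forebrain (1.08 to 1.25). Of their 50-base windows, 97.65% in Hist1h2aa but 61.76% in Hist1h2ba occur in no other annotated gene. Hist1h2ba shares 38.24% with the somatic gene Hist1h2bj, so part of its reads may belong to other H2b genes, which was not tested. Of 4 male germ line markers, Ddx4 (158.98 and 13.66 RPKM) and Sycp3 (253.1 and 81.0 RPKM) were higher in ES cells, and the spermatid genes Prm1 and Tnp1 were not listed. Their part in the values of Hist1h2aa and Hist1h1t was not tested.

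The genes of this pair are transcribed away from each other with 305 bp between their annotated bounds, and the DNA between them serves as promoter for both. The 160 bases before the start of Hist1h2aa (RefSeq, GRCm38.p6, chr13:23934277-23934436, plus strand) are shown because the genes on either side of it differed so widely in their ratios. Capitals mark CCAAT or its complement, the octamer on the opposite strand and TATAAA.
Hist1h2aa, upstream: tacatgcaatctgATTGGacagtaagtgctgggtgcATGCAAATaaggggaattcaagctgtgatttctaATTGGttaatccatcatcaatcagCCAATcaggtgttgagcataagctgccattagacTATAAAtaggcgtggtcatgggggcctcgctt
The octamer ATTTGCAT is bound by POU factors such as Oct1 and is the best known element of H2b promoters. It was sought on both strands of the window from 250 bases before to 50 bases after each start, and no match overlapped one of another motif. Of 61 members with a RefSeq promoter, 13 held it (21.3%), against 1.75% of 27025 promoters. These were 7 of 17 H2a and 6 of 16 H2b promoters, and none of the 6 H1, 10 H3 and 12 H4 promoters. Many of the H2a and H2b windows overlap, as here, where both genes are counted for the same octamer. CCAAT, sought on both strands, occurred in 52 members (85.2%) and in 37.9% of all promoters. All promoters of H1, H2a, H2b and H3 members held it, and 3 of 12 of H4 members. TATAAA on the sense strand occurred in 30 members (49.2%) and in 8.88% of all promoters.

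Neighbouring members gave 13 such divergent pairs of an H2a and an H2b gene with bounds that do not overlap and lie under 1000 bp apart. The annotated bounds of the partners were 167 to 305 bp apart. Hist1h2aj and Hist1h2bm also diverge but were left out, since their bounds overlap. In 5 pairs the log2 ratios of the partners differed by less than 0.5, and the median difference was 0.54. The pairs of Hist1h2ao with Hist1h2bq and of Hist1h2ap with Hist1h2br share 100% of their 50-base windows and are not separate measurements. The closest partners were Hist1h2an and Hist1h2bp, with log2 ratios of -0.316 and -0.285, though Hist1h2an shares 80.5% of its windows with Hist1h2ah. Besides Hist1h2aa and Hist1h2ba, 2 pairs differed by more than 2 on the log2 scale. Hist2h2ac was read at 11561 RPKM in ES cells and 8664 RPKM in forebrain, while its partner Hist2h2be was read at 73.49 and 304.3 RPKM. Hist3h2a was read at 3203 and 4534 RPKM, and its partner Hist3h2bb-ps at 617.1 and 3539 RPKM.

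The genes lie at 6 places in the NCBIM37 (mm9) genome. The Hist1 cluster on chromosome 13 has a first block of 24 genes (chr13:21807632-22135545) and a second of 31 (chr13:23622919-24026720), with Hist1h2al apart at chr13:51298057-51298434. Hist2 holds 10 genes (chr3:96023839-96082924), Hist3 holds 3 (chr11:58762413-58770176) and Hist4h4 stands alone (chr6:136752589-136752900). The summed levels of the Hist1 blocks were nearly even as deposited, with a ratio of 0.987 (0.978 to 0.996) in the first and 0.948 (0.942 to 0.954) in the second. Hist2 leaned to ES cells with 83392 and 64397 RPKM, a ratio of 1.30 (1.28 to 1.31) that was 1.07 when scaled by the sum of RPKM. The Hist2 sum holds both Hist2h2aa1 and Hist2h3c1, whose exons overlap on the same strand.

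Hist3 was the cluster that differed most. Its 3 genes summed to 4308 RPKM in ES cells and 11135 RPKM in forebrain, 2.59-fold higher in forebrain, and all 3 lay on that side under each scaling. Hist3h2ba, an H2B gene, was read at 487.8 RPKM in ES cells (429.5 to 553.1, from 248 reads) and at 3063 RPKM in forebrain (2939 to 3190, from 2318 reads), 6.28-fold higher in forebrain (5.498 to 7.177). Hist3h2bb-ps, which the annotation calls a pseudogene, was read from 235 and 2009 reads and was 5.74-fold higher in forebrain (5.01 to 6.59). It shares 30.05% of its 50-base windows with Hist3h2ba, and Hist3h2ba shares 21.89% with it, so their values may not be wholly separate measurements. Hist3h2a, the H2A gene of the cluster, was 1.42-fold higher in forebrain (1.37 to 1.46). Its exons overlap those of Trim17 on the same strand, so reads of both cannot be separated there.

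Hist2h2be was the least abundant member in ES cells and the only one of the Hist2 genes at least 2-fold apart. It was read at 73.49 RPKM in ES cells (62.65 to 86.12, from 158 reads) and at 304.3 RPKM in forebrain (285.6 to 324.2, from 973 reads), 4.14-fold higher in forebrain (3.49 to 4.92). Along with Hist2h2bb it is a member without the stem-loop motif in the window searched.

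**Figure D3:**
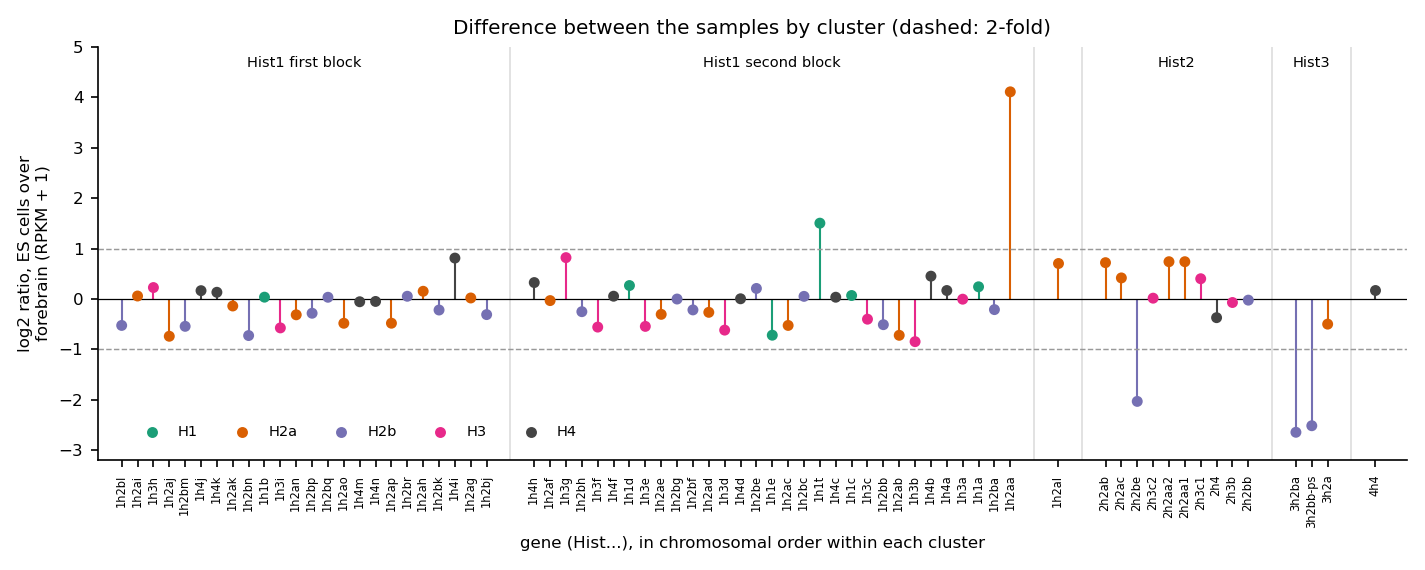
Log2 ratio of ES cells over forebrain, on log2(RPKM + 1), for each histone gene in chromosomal order within its cluster, with dashed lines at 2-fold. Grey vertical lines separate the clusters and the lone genes Hist1h2al and Hist4h4. Hist1h2aa at 4.11 and Hist1h1t rise above the upper line, and Hist2h2be, Hist3h2bb-ps and Hist3h2ba fall below the lower one.

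Many members share sequence, and reads from such copies could be assigned to any of them. For each gene the share of 50-base windows of its exons that occurs in no other annotated gene, on either strand, was computed. It ranged from 0 to 100% with a median of 52.6%, and 38 members had at least 50%. The 7 genes with no window of their own were Hist2h2aa1, Hist2h2aa2, Hist2h2ab, Hist1h2ao, Hist1h2ap, Hist1h2bq and Hist1h2br, and the single values of these are uncertain. Hist2h2ab differs from the others in that Gm15444, annotated over it on the opposite strand, holds 100% of its windows. Whether reads were counted by strand is not given in the sources used here. Hist1h1a, Hist1h1b, Hist1h1t, Hist2h2bb, Hist2h2be and Hist4h4 had 100%. The 5 members at least 2-fold apart had 70.0% (Hist3h2bb-ps) to 100%, and none of the 32 members under 50% was 2-fold apart. Among the 38 members with at least 50%, 2 were at least 2-fold higher in ES cells and 3 in forebrain, and the summed ratio was 0.998. The shares of all listed genes are 23.3% and 25.8%, and those of the abundant genes 23.7% and 11.4%.

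**Figure D4:**
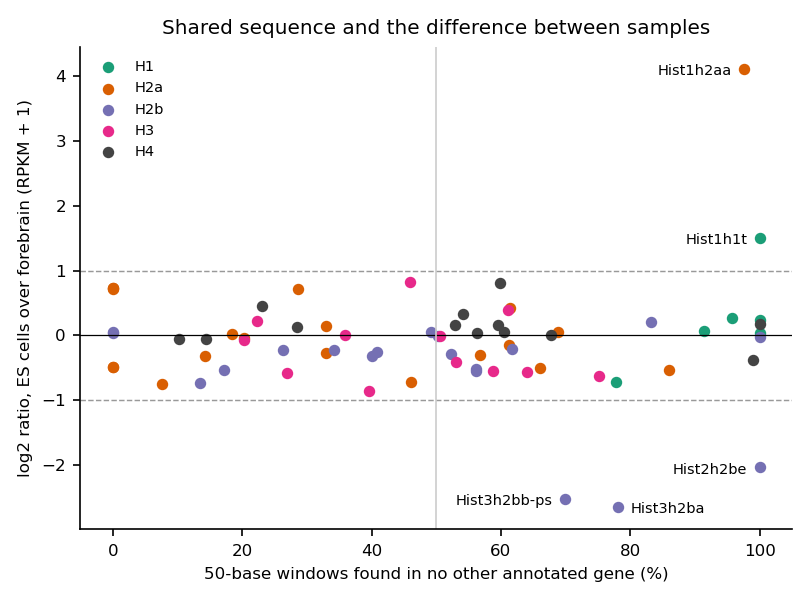
Log2 ratio of ES cells over forebrain (RPKM + 1) against the percentage of 50-base exonic windows found in no other annotated gene, 1 point per histone gene, coloured by type, with dashed lines at 2-fold and a grey line at 50%. All 5 genes beyond 2-fold lie to the right of the grey line, and the 32 genes to its left lie between the dashed lines.

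Related genes were taken as fixed lists. Of 14 replication-independent variant histone genes 13 were listed, with a median log2 ratio of -0.26, and 2 were at least 2-fold higher in ES cells and 5 in forebrain. H1f0, the linker histone of cells leaving the cycle, was read at 1915 RPKM in ES cells and 12402 RPKM in forebrain, 6.48-fold higher in forebrain (6.04 to 6.97). H1fx, another linker variant, was read at 46.03 and 728.8 RPKM. The macroH2A genes H2afy (658.5 and 2988 RPKM) and H2afy2 (203.2 and 2382 RPKM) and the H2A.Z gene H2afv (1507 and 3496 RPKM) were also higher in forebrain. The more abundant H2A.Z gene, H2afz, was 1.56-fold higher in ES cells (9590 and 6156 RPKM). H2afj (420.3 and 189.6 RPKM) was higher in ES cells, as was H1fnt from 5 reads and none. Scaled by the sum of RPKM, H2afj was within 2-fold and the other 6 were not. The 7 of 13 listed variants beyond 2-fold as deposited, H1fnt included, stand beside 49.1% of all listed genes.

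Of 18 listed genes that act in histone gene expression, 2 were at least 2-fold higher in each sample. The median log2 ratio of the 18 was 0.12 and turned to -0.15 when scaled by the sum of RPKM. On that scale Sympk (582.5 and 1084 RPKM) also passed 2-fold towards forebrain. For these lists and those below, the shares of all listed genes past 2-fold are 23.3% towards ES cells and 25.8% towards forebrain, and 23.7% and 11.4% of the abundant genes. Slbp, the stem-loop binding protein, stood at 965.5 RPKM in ES cells and 1016 RPKM in forebrain. Npat, the coactivator that cyclin E-CDK2 phosphorylates at histone genes, stood at 564.0 and 476.7 RPKM. Higher in ES cells were Ccne1, a cyclin E (4386 and 1078 RPKM), and Zfp473, a zinc finger protein of the 3′ end processing machinery (331.5 and 32.12 RPKM). Higher in forebrain were Ccne2, the other cyclin E, with a log2 ratio of -1.21, and Lsm11, a subunit of the U7 particle that cuts histone pre-mRNA, with -1.06, a value within 2-fold when scaled by the upper quartile. Rnu7, the U7 RNA gene, was not listed.

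Of 15 histone chaperones and carriers 2 were at least 2-fold higher in ES cells and none in forebrain, with a median log2 ratio of -0.07. These were Hat1, which acetylates new H4 (9757 and 3403 RPKM), and Daxx, an H3.3 chaperone (1765 and 876.7 RPKM), which was within 2-fold when scaled by the sum of RPKM. Of 21 S phase genes Cdt1, a licensing factor, was at least 2-fold higher in ES cells (1623 and 698.6 RPKM) and Mki67, a marker of cycling cells, in forebrain (759.8 and 2474 RPKM), with a median log2 ratio of 0.12. Scaled by the sum of RPKM, Cdt1 was within 2-fold, Rrm1 (3814 and 6427 RPKM) was at least 2-fold higher in forebrain and the median turned to -0.15. The replication clamp Pcna did not differ within counting error, 0.987-fold (0.968 to 1.007).

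**Figure D5:**
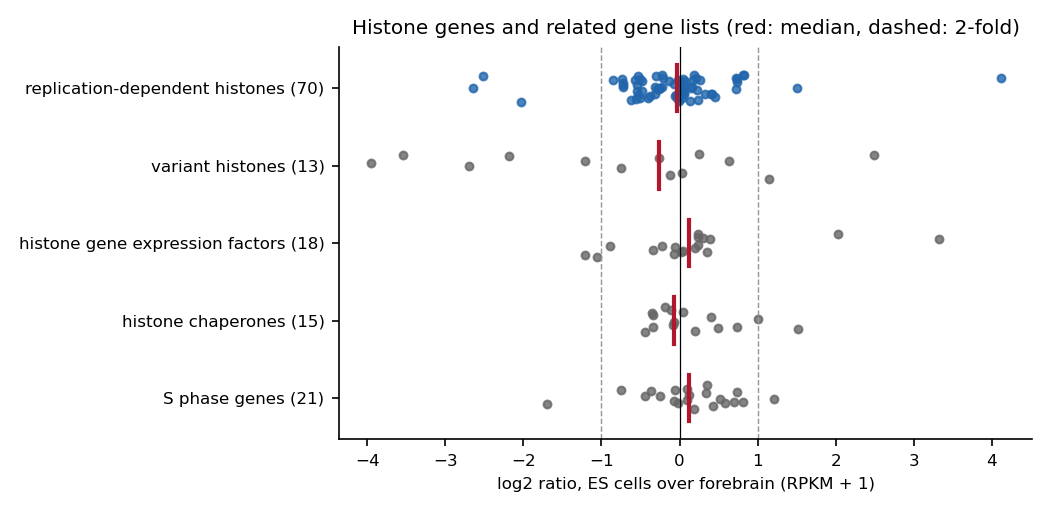
Log2 ratio of ES cells over forebrain (RPKM + 1) for each gene of the histone family and of 4 related lists, with the number of listed genes in brackets, a red bar for the median and dashed lines at 2-fold. The medians lie between -0.26 (variant histones) and 0.12, and 7 of 13 variant histones lie beyond 2-fold, where 49.1% of all listed genes do.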

How the data were processed

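Single-end reads of both libraries were mapped by the authors to NCBIM37 (mm9), and the deposited tables hold 1 value per gene, called RPKM. Bowtie 0.12.7 is named in the submitters' processing notes, the read length is given as 100 bases in the labels and 50 in the methods, and the pipeline version and the scaling constant are not given in the sources used here. Values were used as deposited, with ratios on log2(RPKM + 1) and folds as plain ratios. Low genes step by 1 read per exonic kb, 1.221 RPKM in ES cells and 0.8191 in forebrain (59.3% and 60.9% of low genes within 0.05 of a whole read, where 10% is chance). Reads were inferred from this step. Intervals at 95% are exact Poisson for levels, Clopper-Pearson conditional on the sum for folds, and approximate on the log scale for ratios of sums. They cover counting error only. A floor of 3 reads counted as detected. No test was run, since each group is 1 sample, and 2-fold was the limit for naming a difference. Members and lists were chosen with earlier results of these data known. All 29311 genes matched the annotation by coordinates, and 61 members matched a RefSeq promoter.

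Named among the members were the 3 most abundant of each type, those at least 2-fold apart with at least 10 reads, every member of a cluster of under 6 genes and the testis genes. Others are named where a count or class needed it, after their values were seen. In the related lists, genes at least 2-fold apart and a few others were named, and not all are described. Scripts used Python 3.11.15, numpy 2.4.6, pandas 2.3.3, scipy 1.17.1, Biopython 1.88 and matplotlib 3.10.9, and were tested on simulated data. Other pseudocounts, scalings, filters and sets of members were tried as alternatives.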

Additional observations from a re-analysis of the deposited data

How the results depend on the processing

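Of 74 alternatives, 17 were chosen after seeing the data, among them those on clusters, on H3 proteins and on 100-base windows. The 2 members at least 2-fold higher in ES cells were counted under every alternative run, and the 3 in forebrain were 6 when scaled by the sum of RPKM (then with Hist1h2aj, Hist1h2bn and Hist1h3b) and 2 among protein-coding members. All 70 were detected under every minimum. The median log2 ratio was -0.302 scaled by the sum of RPKM and 0.059 by the upper quartile. Ratios of sums moved with the scale by more than their counting intervals. Scaled by the sum of RPKM they were 0.8358 for all members, 0.8498 for H1, 0.9455 for H2a, 0.6459 for H2b, 0.6757 for H3, 0.9151 for H4, 0.8167 and 0.7847 for the first and second Hist1 block, 1.072 for Hist2 and 0.3202 for Hist3. Scaled by the upper quartile they were 1.073 for all members, 1.091 for H1, 1.214 for H2a, 0.8295 for H2b, 0.8678 for H3 and 1.175 for H4. Scaled by inferred reads on genes they were 0.9468 for all members, 0.9626 for H1, 1.071 for H2a, 0.7317 for H2b, 0.7654 for H3 and 1.037 for H4. Without the most abundant member they were 0.9903 for all members, 0.9102 for H1, 1.067 for H2a, 0.8047 for H2b, 0.8822 for H3, 0.9757 and 0.8919 for the Hist1 blocks, 1.229 for Hist2 and 0.1674 for Hist3. Among members with at least 50% of 50-base windows unique they were 0.998 for all members, 1.035 for H2a, 0.7313 for H2b, 0.7562 for H3, 0.6901 for the H3.2 genes, 0.996 for the H3.1 genes, 1.062 and 0.9653 for the Hist1 blocks and 1.12 for Hist2. H2b, H3, the H3.2 genes and Hist3 stayed below 1 and Hist2 above 1 under each of these that was run on them. The other ratios crossed 1 in at least 1 alternative, except that of the second Hist1 block, which stayed below 1. No paired analysis was possible because each group is 1 sample and the labels carry no replicate numbers. Depth limits the single values of Hist1h2aa in forebrain most, where 25 reads were inferred.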

Other observations

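The Hist1 blocks also contain 5 other protein-coding genes, and 4 of them lie below the least abundant histone gene in each sample. Prss16, a thymic serine protease, was listed at 71.43 RPKM in ES cells (143 reads) and 1.51 in forebrain (5 reads). Zfp184, a zinc finger gene, was listed at 196.23 and 595.48 RPKM. Pom121l2 (6.22 and 2.55 RPKM), Hfe (10.42 and 19.03 RPKM) and Trim38 (3.45 and 0.58 RPKM) were low in both samples.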
